A study of Mus musculus with 9 samples.

Results

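The 46 genes described here encode lysosomal enzymes and membrane proteins, together with subunits of the proton pump that acidifies the lysosome and transcription factors that control lysosomal genes. They were chosen by gene name, with earlier results of these data known, from a table of 55401 mouse genes that holds a count and an FPKM value (counts scaled to the length of the gene and to the depth of the library) for each library. All 46 names were found in the table, and 40 of them also stand in its annotation under the KEGG lysosome pathway. Brain RNA, labelled as basal ganglia, was sequenced in 3 groups of 3 libraries from wildtype mice. The animals of the study were adult male C57BL mice. The ICH group had an intracerebral hemorrhage (ICH), made by injecting the animal's own whole blood into the right basal ganglia, and was then given the vehicle of Laminaria. The sham group had the needle insertion without blood, and the ICH+Laminaria group had the hemorrhage and was then treated with Laminaria, which the labels name without an extract or dose. The labels give day 3 for all sham and ICH libraries and days 4, 5 and 6 for ICH+Laminaria 1, 2 and 3, so treatment and labelled day cannot be told apart in the last group. The labelled days rise by 1 from library to library there, no other source used here states them, and whether they are the true days of sampling is uncertain. Injected blood is a model of the bleeding without the rupture of a vessel, and the labels do not state whether the libraries of a group are separate mice, so the p-values reflect the variation among these libraries, which may be technical.

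Lysosomes are acidic compartments in which soluble hydrolases break down proteins, glycans, lipids and nucleic acids delivered by endocytosis, phagocytosis and autophagy. The vacuolar proton pump keeps their lumen acid, heavily glycosylated membrane proteins line it, and most of its enzymes are carried there by receptors that recognise sugar phosphate tags. In brain every cell type holds lysosomes, and microglia and macrophages, which take up red cells and debris after a hemorrhage, are rich in them. The related factors TFEB, TFE3 and MITF bind a short palindromic promoter element, the E-box CACGTG, best in its extended form TCACGTGA, and TFEB drives many lysosomal genes through it.

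The E-box stretches are shown because the 3 listed factors bind this element, and because members with and without a change after ICH hold it. RefSeq promoter windows (build GRCm38.p6, 250 bases before to 50 after a transcript start) were matched for 40 of the 46 genes. The 40 genes have 52 windows, since 8 of them have several transcript starts, and a start may lie inside the gene as the table bounds it. Both motifs read the same on either strand, every TCACGTGA contains a CACGTG, and a match is a description of the letters in the window. At least 1 window held CACGTG for 12 of the 40 genes (30.0%), against 8.09% of the 27025 genes with a window, and TCACGTGA for 4 of 40 (10.0%) against 1.12%. Counted by window, CACGTG was found in 12 of 52 (23.1%), against 7.15% of all 32851 windows, and TCACGTGA in 4 of 52 (7.69%) against 0.974%. Another motif, GAGGAA, was searched on both strands and found for 15 of the 40 genes (37.5%), against 31.3% of all genes, near the background. It was found for 12 of 24 members called higher after ICH and 3 of 16 others, a difference that was not tested. The capitals mark CACGTG in each stretch, which is written on the strand of the gene. Ctsa, Ctsd, Gla and Mcoln1 hold the extended form. The Ctsd element shown begins 98 bases before the transcript start of its window, the Naglu element 73, and the elements of Lamp1 begin 61, 45, 28 and 15 bases before it. Ctsd has another CACGTG, which is not the extended form and is not shown, 245 bases before the same start. The stretches of Ctsa and Lgmn come from 1 of 2 windows each, at transcript starts 900 and 721 bases inside the gene, and the windows nearest to the gene's own start hold no CACGTG.
Ctsd, chr7:142387908-142387937, minus strand: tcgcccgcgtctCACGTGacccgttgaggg
Ctsa, chr2:164833749-164833795, plus strand: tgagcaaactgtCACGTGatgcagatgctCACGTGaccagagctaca
Gla, chrX:134601182-134601244, minus strand: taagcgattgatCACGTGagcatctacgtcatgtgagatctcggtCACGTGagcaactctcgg
Naglu, chr11:101070009-101070038, plus strand: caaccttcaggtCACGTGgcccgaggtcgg
Lgmn, chr12:102439124-102439153, minus strand: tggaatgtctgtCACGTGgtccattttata
Lamp1, chr8:13159088-13159163, plus strand: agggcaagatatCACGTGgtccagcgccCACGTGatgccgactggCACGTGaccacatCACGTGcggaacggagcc
Mcoln1, chr8:3500436-3500491, plus strand: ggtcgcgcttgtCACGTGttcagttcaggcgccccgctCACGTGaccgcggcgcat

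Total deposited counts were 51307799 to 74649716 per library. In each library the small counts clustered in steps of 3.71 to 3.78 counts, and a sequenced fragment therefore appears to have added more than 1 count. Levels are given as CPM, counts scaled to a common library size by the TMM method over the 9 libraries, and genes are compared with each other in FPKM. A gene was tested where its FPKM averaged at least 0.5 over the 6 libraries of a comparison. The quasi-likelihood test of edgeR was used with Benjamini-Hochberg adjustment across all tested genes, and a gene was called at an adjusted p under 0.05. Genes that mark the labelled region were well expressed in the sham group, with 1156 ± 442 CPM of Ppp1r1b (the phosphoprotein DARPP-32 of striatal projection neurons) and 142 ± 31.3 CPM of Drd1 (SD, n = 3 each).

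After ICH the 46 genes together took about 2 times the share of RNA that they took in the sham group, and the change was very uneven among them. They held 0.701%, 0.645% and 0.776% of all counts in the sham libraries, against 1.08%, 1.60% and 1.46% in the ICH libraries. The group means were 0.707% ± 0.0654 and 1.38% ± 0.269 (SD, n = 3 each), and the groups did not overlap. Summed levels lean on few abundant genes. Ctsd, Psap and Ctsb held 45.1%, 46.6% and 49.3% of the summed CPM of the members in the sham libraries. In ICH 1, 2 and 3 they held 52.5%, 56.5% and 55.8%. Of the 45 members tested, 26 rose, none fell and 19 did not pass the test, against 7.42% of all 16414 genes called higher and 3.16% called lower. The log2 fold changes ran from -0.35 (Atp6v1b2) to 4.41 (Plbd1), with a median of 0.76 beside 0.01 over all genes tested. The ICH libraries all exceeded the sham libraries for 32 of the 45 tested genes and all lay under them for 1, against 19.5% and 16.7% of all genes tested. Among the 26 that rose the fold change was 1.48 to 21.3 with a median of 2.68, and 18 of them more than doubled. Plbd1 and Acp5, which are among them, had a mean FPKM under 0.5 in sham and reached the test only through the ICH libraries.

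Within the ICH group the order of libraries was nearly the same for every raised gene. ICH 1 was the lowest of the 3 ICH libraries for all 26, and ICH 2 the highest for 20. In the sham group sham 3 was the highest for 21 of the 26. Leaving out ICH 1 gave 31 members called higher and 1 lower by edgeR, beside 10.5% of all genes called higher and 6.15% called lower. Leaving out sham 3 gave 17 higher and none lower, beside 2.61% and 0.268% of all genes. Without sham 1, sham 2, ICH 2 or ICH 3, in turn, no member passed, and the 26 genes then had adjusted p-values of 0.0547 to 0.144 from edgeR's quasi-likelihood test, each with an unadjusted p under 0.05 and the same direction. Almost no gene of the whole table passed in these fits either, 1 higher and 1 lower of 16414 without sham 2 (0.00609% each) and 0 without the others.

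**Figure D1:**
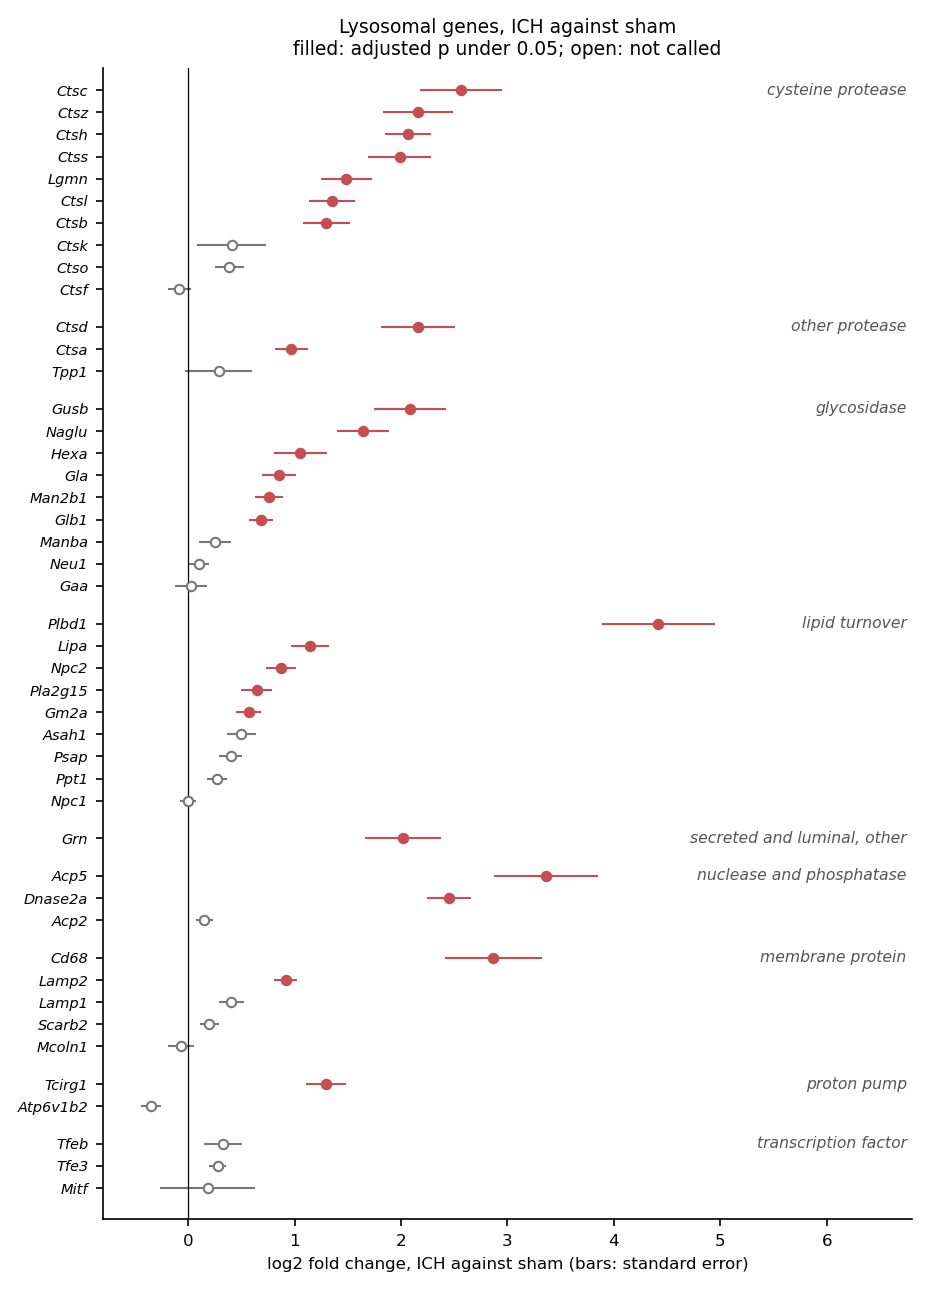
Log2 fold change of each of the 45 tested genes in ICH against sham (x axis, dimensionless), grouped by role on the y axis. Points are the edgeR estimates and bars their standard errors, filled points have an adjusted p under 0.05, and the 26 filled points all lie to the right of 0, from Gm2a (0.57) to Plbd1 (4.41).

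Of the 10 cysteine proteases 7 rose, with Ctsc, Ctsz, Ctsh and Ctss ahead of Lgmn, Ctsl and Ctsb. Ctsc, which encodes dipeptidyl peptidase I, the activator of the serine proteases of leukocyte granules, led the group. Its level was 8.17, 12.4 and 18.8 CPM in sham 1, 2 and 3, 48.3, 103 and 81.2 CPM in ICH 1, 2 and 3, and 52.1, 45.99 and 87.6 CPM in ICH+Laminaria 1, 2 and 3. The lowest ICH library was above the highest sham library, and the rise in ICH against sham was 5.91-fold (log2 fold change 2.56, standard error (SE) 0.38, edgeR adjusted p = 0.023). The gene (ENSMUSG00000030560) lies on chromosome 7 from 88278085 to 88310888 of GRCm38.

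Ctss encodes cathepsin S, the protease that trims the invariant chain of MHC class II in antigen-presenting cells. It had 78.8, 88.7 and 119 CPM in the sham libraries and 226, 477 and 432 CPM in ICH 1, 2 and 3. All ICH libraries were above the sham libraries, ICH 1 by the least, and the rise was 3.96-fold (log2 fold change 1.99, SE 0.30, edgeR adjusted p = 0.023). Ctsz, a carboxypeptidase, rose by 2.16 on the log2 scale, and Ctsh, an aminopeptidase, by 2.06. Ctsh had 14.1, 14.2 and 16.1 CPM in sham and 42.1, 73.4 and 70.2 CPM after ICH, so the gap between the groups was larger than the range of the sham group (edgeR adjusted p = 0.021).

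Ctsb and Ctsl, broadly expressed endopeptidases, and Lgmn, the asparaginyl endopeptidase that cleaves cathepsins to their mature chains, rose less. Ctsb had 767, 699 and 902 CPM in sham and 1335, 2384 and 2112 CPM after ICH, without overlap, a rise of 2.46-fold. The log2 fold change was 1.35 for Ctsl and 1.49 for Lgmn. The other members of the group did not pass the test: Ctso had a log2 fold change of 0.39 (edgeR adjusted p = 0.11), Ctsk, the collagen-degrading cathepsin of osteoclasts, 0.41 (adjusted p = 0.46) and Ctsf -0.08 (adjusted p = 0.67). Ctsf had 57.9, 62.1 and 57.0 CPM in sham and 59.2, 59.0 and 48.5 CPM after ICH, so the groups overlapped. It is one of the genes with an E-box in a window, as Ctsl and Lgmn are.

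Ctsd encodes cathepsin D, the main aspartic protease of the lysosome, and of all members it had the largest gain in CPM. The gene (ENSMUSG00000007891) lies on chromosome 7 from 142375911 to 142388038 of GRCm38 on the minus strand. The sham libraries held 513, 552 and 1016 CPM of it and the ICH libraries 2018, 3833 and 3476 CPM. Sham 3 stood above the other sham libraries but still below every ICH library, and the rise was 4.47-fold (log2 fold change 2.16, SE 0.35, edgeR adjusted p = 0.023). In GENCODE M21, 34.4% of the exon bases of Ctsd are shared with a gene model on the same strand, Gm49369, and how the deposited counts treated such bases is not given in the sources used here. Ctsa, a serine carboxypeptidase that also shields beta-galactosidase and neuraminidase in a complex, rose by 0.97 on the log2 scale, and the window at its inner transcript start holds 2 E-boxes.

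Tpp1, the tripeptidyl peptidase lost in a form of neuronal ceroid lipofuscinosis, was the exception among these proteases. It had 85.2, 75.1 and 50.6 CPM in sham and 60.2, 128 and 68.5 CPM after ICH. The groups overlapped and 1 library, ICH 2, was far above the rest (log2 fold change 0.29, SE 0.32, edgeR adjusted p = 0.60). Without ICH 2 the log2 fold change was -0.14.

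**Figure D2:**
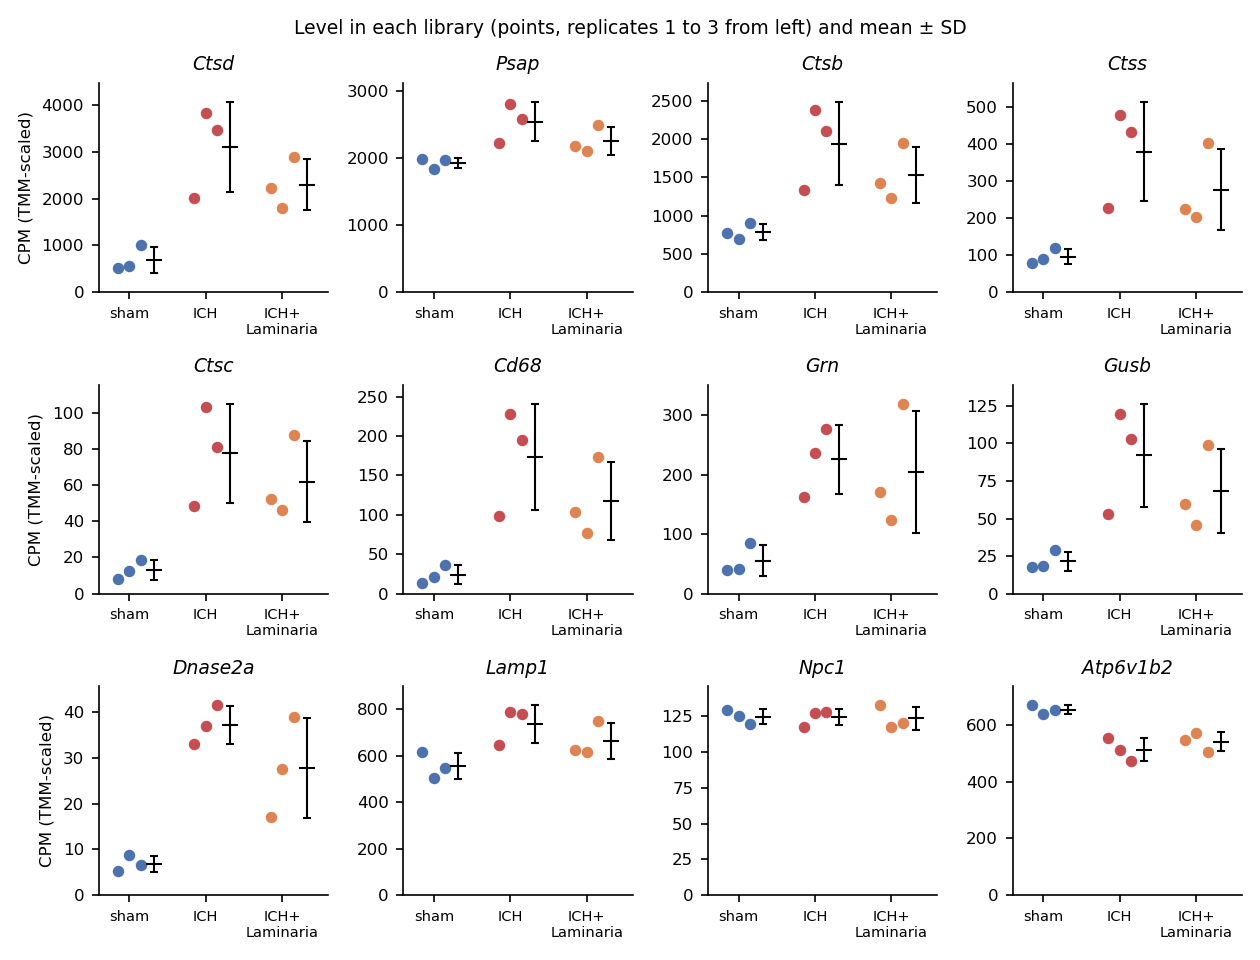
Levels of 12 of the genes in TMM-scaled CPM (y axes, each starting at 0) in the 3 libraries of each group (x axis), with points for replicates 1 to 3 from left to right and a bar for the mean ± SD. Ctsd, Ctsc, Cd68 and Dnase2a lie higher in every ICH library than in every sham library, the Npc1 points overlap, and Atp6v1b2 lies lower in every ICH library (474 to 553 CPM) than in every sham library (639 to 670 CPM).

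Of the 9 glycosidases, which remove sugars from glycolipids, glycoproteins and proteoglycans, 6 rose. Gusb, which encodes beta-glucuronidase, had 17.4, 18.5 and 28.9 CPM in sham and 53.2, 120 and 103 CPM after ICH. The groups did not overlap and the rise was 4.25-fold (log2 fold change 2.09, SE 0.34, edgeR adjusted p = 0.023). Naglu, an enzyme of heparan sulfate breakdown, had 8.91, 7.32 and 10.7 CPM in sham and 19.4, 31.4 and 33.6 CPM after ICH, also without overlap, a rise of 1.64 on the log2 scale. Hexa, the alpha subunit of the hexosaminidase that degrades GM2 ganglioside, rose by 1.06, Gla, an alpha-galactosidase, by 0.85, Man2b1, an alpha-mannosidase, by 0.76, and Glb1, the beta-galactosidase used as a senescence stain, by 0.69.

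The other glycosidases, 3 in all, did not pass the test. Gaa, which degrades glycogen in the lysosome, was the most abundant of the group in sham by FPKM. It had 531, 373 and 432 CPM in sham and 486, 459 and 409 CPM after ICH. The ICH values fell inside the sham range (log2 fold change 0.02, SE 0.15, edgeR adjusted p = 0.94). Neu1, a neuraminidase, had a log2 fold change of 0.10 and Manba, a beta-mannosidase, one of 0.25, with overlapping groups.

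The 9 genes of lipid turnover held both the largest fold change of all and Psap, the most abundant transcript of the sham group by FPKM. Plbd1, a phospholipase B-like protein first isolated from neutrophils, had 0.112, 0.253 and 0.355 CPM in sham and 2.84, 5.94 and 6.63 CPM after ICH. It was nearly silent in sham, and the 21.3-fold rise rests on a low level (log2 fold change 4.41, SE 0.53, edgeR adjusted p = 0.021). The mean FPKM of Plbd1 was 0.0749 in sham and 1.72 in ICH. Only the ICH libraries brought it to the level for the test, so a rise was to be found if it was tested at all. Lipa, the acid lipase that frees cholesterol from its esters, rose by 1.15 on the log2 scale, from 35.6, 25.3 and 32.9 CPM in sham to 55.5, 78.2 and 74.2 CPM after ICH. The groups did not overlap.

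Npc1 and Npc2 hand cholesterol out of the lysosome in turn, Npc2 as the soluble carrier and Npc1 as the membrane protein that receives it. Npc2 had 120, 105 and 131 CPM in sham and 177, 241 and 234 CPM after ICH, a rise of 0.87 on the log2 scale (SE 0.14, edgeR adjusted p = 0.023). Npc1 had 130, 125 and 120 CPM in sham and 118, 127 and 128 CPM after ICH, with a log2 fold change of 0.00 (SE 0.07, edgeR adjusted p = 0.99). The soluble partner lay higher in each ICH library than in any sham library, the ranges of the membrane partner overlapped, and the difference between the genes was not tested.

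Psap, the precursor of the saposins that present glycolipids to their hydrolases, had 1974, 1835 and 1966 CPM in sham and 2224, 2806 and 2578 CPM after ICH. The groups did not overlap, and the gene did not pass the test (log2 fold change 0.40, SE 0.11, edgeR adjusted p = 0.065). Gm2a, the activator protein that lifts GM2 ganglioside out of the membrane, rose by 0.57 and Pla2g15, a lysosomal phospholipase A2, by 0.64. Asah1, acid ceramidase, had a log2 fold change of 0.50 (edgeR adjusted p = 0.061) and Ppt1, which removes palmitate from proteins, 0.27 (adjusted p = 0.12).

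Per length, cathepsin D overtook prosaposin as the most abundant transcript of the 46. In FPKM the Psap level was above the Ctsd level in each sham library, with a ratio of Ctsd to Psap of 0.303, 0.351 and 0.603. The ratio was 1.06, 1.59 and 1.57 in ICH 1, 2 and 3 and 1.20, 0.998 and 1.35 in ICH+Laminaria 1, 2 and 3. In the sham group the order by mean FPKM was Psap (603 ± 25.6), Ctsd (254 ± 105), Lamp1 (179 ± 17.4), Ctsb (112 ± 15.5) and Atp6v1b2 (106 ± 2.31), and the last neighbours did not differ beyond their SD. After ICH it was Ctsd (1169 ± 352), Psap (818 ± 87.3), Ctsb (284 ± 77.2), Ctss (246 ± 85.3) and Lamp1 (244 ± 24.4), where Ctsd and Psap differed by about 1 SD of Ctsd and the last 3 could not be ordered beyond their spread. At the low end stood Atp6v0d2, at 0 in sham and 0.163 ± 0.0710 FPKM after ICH (SD, n = 3).

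Grn encodes progranulin, which is secreted, taken up and cut into granulins in the lysosome. The sham libraries held 39.6, 41.2 and 85.6 CPM of it and the ICH libraries 162, 237 and 278 CPM. Sham 3 had the highest sham value, as for Ctsd, and the rise was 4.06-fold (log2 fold change 2.02, SE 0.35, edgeR adjusted p = 0.026).

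Of the nuclease and the acid phosphatases, 2 of 3 rose and both by more than 4-fold. Dnase2a, the acid DNase that digests the DNA of engulfed cells, had 5.20, 8.73 and 6.60 CPM in sham and 33.2, 37.0 and 41.6 CPM after ICH. The ICH libraries lay close to each other, and the gene had the smallest p among the members (log2 fold change 2.45, SE 0.21, edgeR adjusted p = 0.020). In GENCODE M21, 30.0% of its exon bases lie opposite exons of Mast1, and the strand setting of the counts is not given in the sources used here. Acp5, the tartrate-resistant phosphatase of osteoclasts and activated macrophages, had 1.11, 0.895 and 1.34 CPM in sham and 4.61, 16.2 and 13.6 CPM after ICH, a rise of 3.36 on the log2 scale. Its mean FPKM in sham, 0.466, was below the 0.5 needed for the test, which Acp5 reached through the ICH libraries. Acp2, the broadly expressed lysosomal phosphatase, had 57.1, 53.8 and 53.0 CPM in sham and 58.4, 59.7 and 63.5 CPM after ICH. Its groups did not overlap either, yet the log2 fold change was only 0.15 (edgeR adjusted p = 0.26).

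Among the 5 membrane proteins, Cd68 and Lamp2 rose and the others did not pass the test. Cd68, the macrophage member of the LAMP family, lies on chromosome 11 from 69664213 to 69666153 of GRCm38 (ENSMUSG00000018774). It had 13.6, 20.8 and 36.8 CPM in sham and 97.9, 229 and 195 CPM after ICH, a rise of 7.29-fold (log2 fold change 2.87, SE 0.46, edgeR adjusted p = 0.023). Lamp2, which also serves in chaperone-mediated autophagy, had 85.6, 85.4 and 89.5 CPM in sham and 138, 183 and 171 CPM after ICH, a rise of 0.92 (edgeR adjusted p = 0.021). Neither gene had overlapping groups.

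Lamp1, the broadly expressed relative, had 618, 506 and 548 CPM in sham and 645, 791 and 779 CPM after ICH. The groups did not overlap but lay close (log2 fold change 0.41, SE 0.12, edgeR adjusted p = 0.071). The level of Cd68 per length was 0.0467, 0.0876 and 0.143 of that of Lamp1 in the sham libraries and 0.323, 0.615 and 0.532 in the ICH libraries, by FPKM. Scarb2, the receptor that carries glucocerebrosidase to the lysosome, had a log2 fold change of 0.20 and Mcoln1, the lysosomal calcium channel, one of -0.06, both with overlapping groups. The windows of Lamp1 and Mcoln1, which did not pass the test, hold 4 and 2 E-boxes, and the relation of motif and change was not tested.

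The proton pump members went apart. The pump joins a membrane sector to a cytosolic sector that burns ATP, and several subunits exist as isoforms of different tissues. Tcirg1, the a3 subunit of osteoclasts and phagocytes, had 17.8, 15.3 and 20.0 CPM in sham and 35.1, 54.8 and 40.2 CPM after ICH, a rise of 1.29 on the log2 scale (SE 0.19, edgeR adjusted p = 0.023). Atp6v0d2, the d2 subunit of osteoclasts and macrophages, had no count in any sham library and 16, 53 and 34 counts in ICH 1, 2 and 3. With the floor taken as 3 steps of the low counts over the sham group (11.2 counts), it was at least 9.30-fold higher after ICH, and its mean FPKM was too low for the test. Atp6v1b2, the cytosolic B2 subunit found in brain, had 670, 639 and 652 CPM in sham and 553, 512 and 474 CPM after ICH. It was the single member whose groups were apart in the downward direction. Atp6v1b2 did not pass the test (log2 fold change -0.35, SE 0.09, edgeR adjusted p = 0.063), although DESeq2 and 5 other settings with all libraries called it lower. DESeq2 was the looser tool in simulated data for ICH and sham, with 78 wrong calls by DESeq2 and 12 by edgeR. Of 100 simulated 2-fold changes there, edgeR detected 41 and DESeq2 70. The simulation changed few genes and drew the noise of each gene independently, so these rates need not hold in the data.

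The list of other subunit and accessory genes of the pump held 21 genes. Of the 18 tested, 1 rose, 1 fell and 16 did not pass, with a median log2 fold change of -0.14. Beside 7.42% of all genes called higher and 3.16% called lower, these counts are near the background. Atp6v0e, a small membrane subunit, rose by 0.73 (edgeR adjusted p = 0.029). Atp6v0a1, the a1 isoform of neurons and the counterpart of Tcirg1, fell by 0.48 on the log2 scale (edgeR adjusted p = 0.023), from 289, 295 and 291 CPM in sham to 222, 202 and 201 CPM after ICH. The ratio of Tcirg1 to Atp6v0a1 in FPKM was 0.0873, 0.0735 and 0.0972 in the sham libraries, 0.225, 0.386 and 0.284 in the ICH libraries and 0.172, 0.140 and 0.337 in the ICH+Laminaria libraries. The neuronal isoform thus remained the more abundant per length in all 9 libraries.

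**Figure D3:**
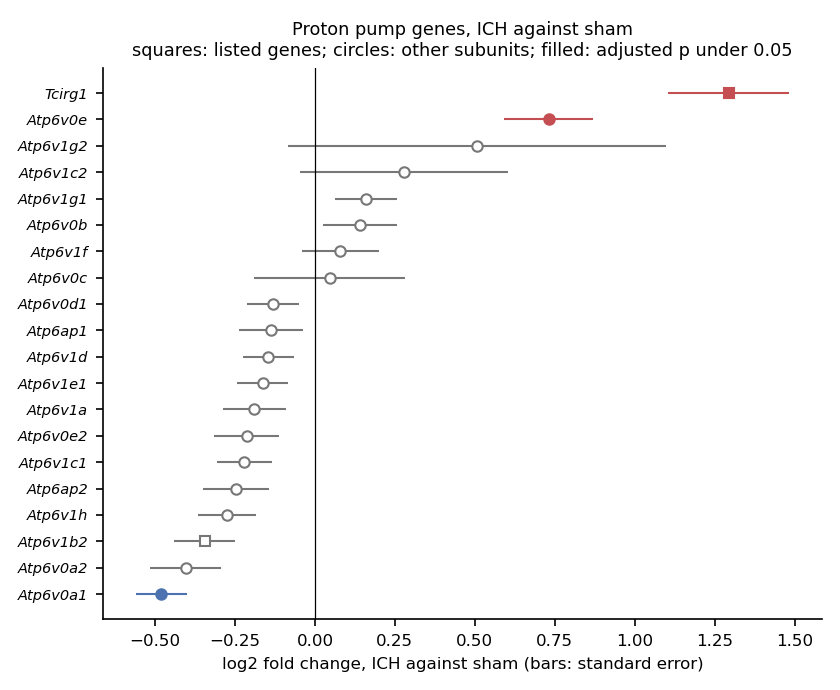
Log2 fold change in ICH against sham (x axis, bars are standard errors) of the 20 tested proton pump genes (y axis), squares for the members Tcirg1 and Atp6v1b2 and circles for the other subunits. Filled points have an adjusted p under 0.05: Tcirg1 (1.29) and Atp6v0e (0.73) lie to the right of 0, Atp6v0a1 (-0.48) to the left, and the 17 open points lie in between.

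None of the transcription factors passed the test. Tfeb had 11.4, 10.2 and 9.01 CPM in sham and 13.5, 10.3 and 14.4 CPM after ICH, with overlap (log2 fold change 0.33, SE 0.18, edgeR adjusted p = 0.27). Tfe3 was the most abundant of them by FPKM, with 47.9, 46.7 and 48.4 CPM in sham and 54.9, 61.3 and 56.8 CPM after ICH, a log2 fold change of 0.28 without overlap (edgeR adjusted p = 0.076). Mitf varied widely, from 3.92 to 11.3 CPM in sham and from 5.93 to 12.2 CPM after ICH, with a log2 fold change of 0.18. Of the 12 members with an E-box in a window 8 rose, and the log2 fold change over the 12 had a median of 0.91 and a range of -0.08 (Ctsf) to 4.41 (Plbd1). Of the 28 with windows but no E-box 16 rose, and over the 28 the median was 0.70 with a range of 0.10 to 3.36. Plbd1 and Acp5, the highest of each set, reached the test only through the ICH libraries. The difference between the 12 and the 28 was not tested.

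Genes of myeloid cells moved with the lysosomal genes. Of 12 pan-myeloid genes, such as Ptprc, Tyrobp and Itgb2, 11 rose in ICH against sham (median over the 12 genes 2.33 on the log2 scale), and the summed level of the list was 230, 243 and 380 CPM in the sham libraries and 584, 1153 and 1078 CPM in the ICH libraries. Only 10 of the 12 reached the level for the test in ICH+Laminaria against sham. The rest were brought to it by the ICH libraries, so the count of 11 and the median of 2.33 lean in part on that choice. As for the summed lysosomal genes, sham 3 was the highest sham library and ICH 1 the lowest ICH library. Sham 1 and sham 2 stood in the other order. In bulk tissue more cells of a type and more RNA per cell cannot be told apart. Only Plbd1, Acp5, Cd68, Ctsc and Dnase2a of the members had a log2 fold change above the pan-myeloid median, and 29 of the 45 had less than 50% of it.

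The summed level of the 46 genes was 31.3, 27.2 and 20.7 times that of the pan-myeloid list in the sham libraries and 18.2, 13.9 and 13.6 times in the ICH libraries. The ratio was lower in every ICH library than in every sham library, with a difference of -0.79 between the group means of its log2. Of 8 tested monocyte and neutrophil genes 5 rose, from a summed level of 2.91 to 3.32 CPM for the 12 genes of the list in sham to 21.3 to 173 CPM after ICH, with Chil3, Camp and Ngp at 0 counts in sham. Genes at 0 counts in sham could reach the level for the test only through the ICH libraries. The count of 5 is therefore no independent sign of a rise. Homeostatic microglial genes rose in 4 of 10 cases, astrocyte genes in 3 of 8, with Gfap up by 2.65, endothelial genes in 3 of 7, and oligodendrocyte genes in 0 of 8. Neuronal genes fell in 2 of 12 cases, with a median log2 fold change of -0.45, beside -0.35 for Atp6v1b2. Striatal neuron genes fell in 1 of 9 cases, with a median of -0.74. Their summed level varied from 3197 to 5032 CPM among the sham libraries and from 2330 to 3461 CPM among the ICH libraries. The part of these shifts in the change of the lysosomal genes was not tested.

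**Figure D4:**
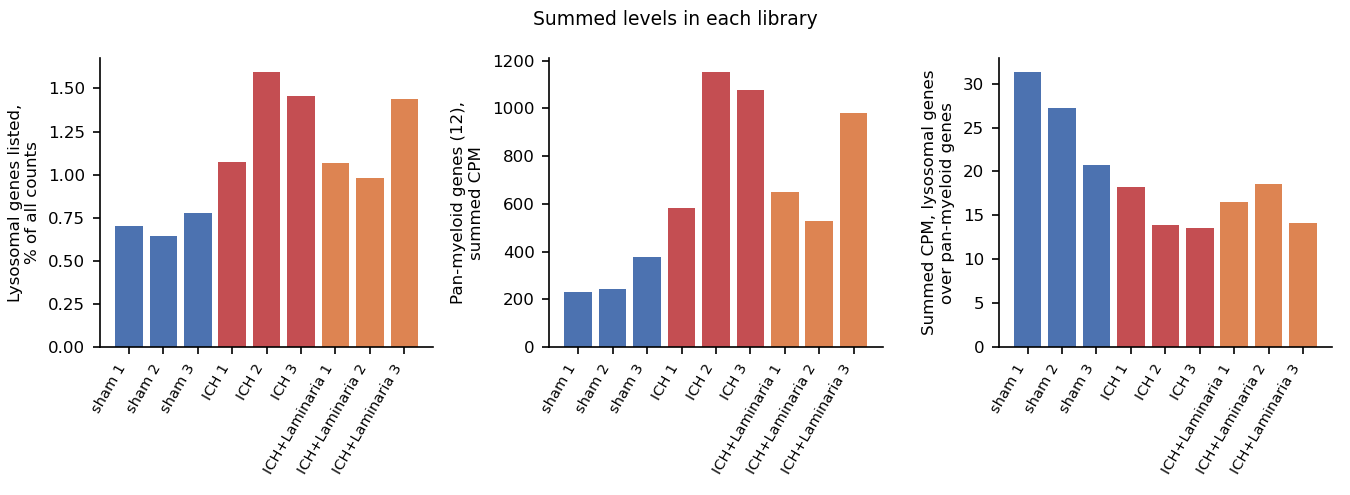
Share of all counts held by the 46 genes (left, percent), summed level of the 12 pan-myeloid genes (middle, CPM) and ratio of the summed CPM of the 46 genes to that of the pan-myeloid genes (right), 1 bar per library. The share and the sum are lowest in sham (0.645% to 0.776% and 230 to 380 CPM), and the ratio is highest there (20.7 to 31.3).

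Other lysosomal genes were set beside the members. Of 29 tested hydrolases and cofactors that are no members 13 rose and none fell, and the median over the 29 was 0.54 on the log2 scale. Among those that rose were Pld4 (1.85), a nuclease of phagocyte endolysosomes, and Rnaset2a (1.48), an acid RNase whose near-identical copy Rnaset2b can share its reads. Of 27 tested membrane proteins and transporters 7 rose and none fell, led by Slc11a1 (2.77), the phagosomal metal transporter NRAMP1, Laptm5 (1.81), a lysosomal protein of blood cells, and Cd63 (1.56), a tetraspanin of late endosomes. Of 7 tested inhibitors of cathepsins 4 rose, namely Serpina3n (3.94), the leukocyte cystatin Cst7 (3.24), Cstb (0.94) and Serpinb6a (0.68). Serpina3n had 56.8 ± 46.6 CPM in sham and 878 ± 420 CPM after ICH (SD, n = 3 each).

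Genes of the machinery around the lysosome gave calls near the background, which was 7.42% of all genes called higher and 3.16% called lower. Of 21 genes for sorting to the lysosome none rose and 1 fell, Sort1 (-0.56), a sorting receptor, with 510 ± 33.6 CPM in sham and 346 ± 19.7 CPM after ICH (SD, n = 3 each). Of 17 tested genes for nutrient sensing on the lysosome none rose and 1 fell, Mtor (-0.32). The medians of these lists were -0.11 and -0.07, beside 0.01 over all genes. In the KEGG lysosome pathway as the table annotates it, a list taken after the table had been seen, 84 genes are no members. Of these, 74 were tested, 15 rose and 2 fell, with a median of 0.06 over the 74, and the largest was Napsa (2.82), an aspartic protease at 3.52 CPM after ICH. In ICH+Laminaria against sham 73 reached the level for the test. Low genes of this list, such as Napsa, may thus have been tested here only through the ICH libraries.

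Between ICH+Laminaria and ICH, the question was whether the treated libraries differ from those given the vehicle. Of the 45 members tested, none was called by edgeR, against 0.006% of 16654 genes called higher and 0.012% called lower. DESeq2 called none of them either. At an unadjusted p under 0.05, 1 member was higher and 1 lower, against 1.71% and 1.65% of all genes, which is near the background. The log2 fold changes were negative for 39 members and positive for 6, with a median of -0.25 beside 0.00 over all genes, and the pan-myeloid median was -0.45. Groups overlapped for all members but Tfeb, against 4.23% of all genes apart upward and 4.79% apart downward. For all 26 genes that rose in ICH, ICH+Laminaria 3, the library labelled day 6, was the highest of its group. The share of all genes with this order was not counted. Over all expressed genes this library also correlated least of its group with sham 1, 2 and 3, at 0.9472, 0.9426 and 0.955. ICH+Laminaria 1 and 2 correlated with them at 0.9699 to 0.9815. The summed share of the members was 1.07%, 0.982% and 1.44% of counts in ICH+Laminaria 1, 2 and 3, the first pair just below the range of the ICH libraries and the last within it. The pan-myeloid sum was 651, 528 and 983 CPM.

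Tfeb was higher in every ICH+Laminaria library, with 16.5, 19.0 and 19.8 CPM, than in any ICH library, where the highest was 14.4 CPM. The log2 fold change was 0.54 (SE 0.17, unadjusted p = 0.017 and edgeR adjusted p = 0.95), which does not pass. Mitf had 4.61, 4.69 and 6.74 CPM in ICH+Laminaria, overlapping the ICH range, with a log2 fold change of -0.85 (SE 0.32, unadjusted p = 0.034 and edgeR adjusted p = 0.95). The lowest values were those of Acp5 (-1.12, SE 0.56) and Plbd1 (-1.10, SE 0.51), and Plbd1 had 1.27 to 4.01 CPM in the ICH+Laminaria libraries. Cd68 had 103, 77.2 and 173 CPM and a log2 fold change of -0.55 (SE 0.39), and Ctsd had 2223, 1793 and 2883 CPM and a log2 fold change of -0.43 (SE 0.27). At this spread between libraries no difference passed for any member, and the labelled day changed together with the treatment.

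**Figure D5:**
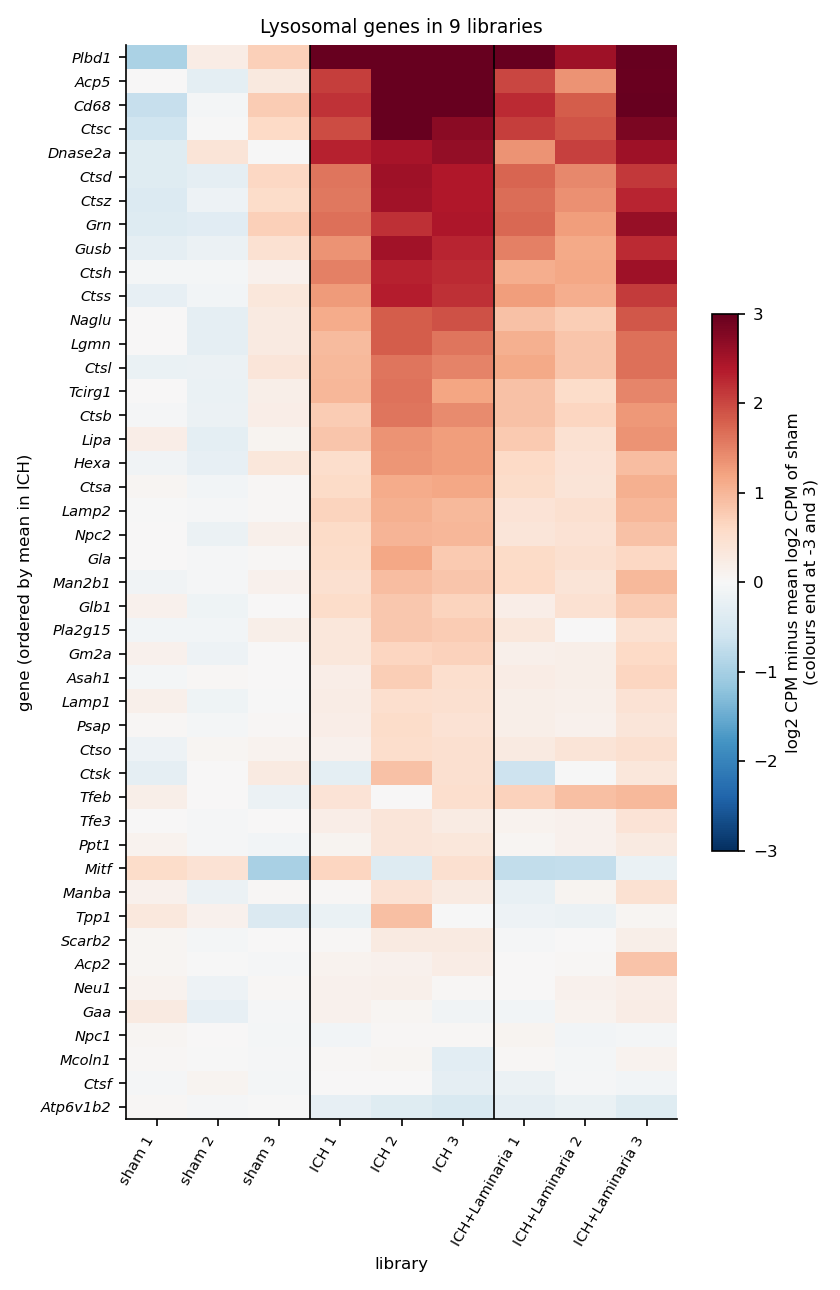
Log2 CPM of 45 of the genes (rows, ordered by their mean in ICH) in 9 libraries (columns), as the difference from the gene's mean log2 CPM in sham. Colours end at a difference of 3 either way. Red deepens toward the top rows, ICH 1 and ICH+Laminaria 1 and 2 are paler than ICH 2, ICH 3 and ICH+Laminaria 3, and sham 3 is redder than sham 1 and 2 in the top rows, as in Cd68 (13.6, 20.8 and 36.8 CPM).

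ICH+Laminaria was also set against the same sham libraries as ICH, so both comparisons share their controls. Of the 44 members tested, edgeR called none at an adjusted p under 0.05, against 0.0122% of 16405 genes called higher and 0.0061% lower. At an unadjusted p under 0.05, 26 members were higher and 1 lower, against 11.2% of all genes higher and 2944 of 16405 in either direction. Of the 44 genes 29 lay above the sham group without overlap, against 14.9% of all genes. Atp6v1b2 lay below it, and the share of all genes that lay below was not counted. The median log2 fold change was 0.56. The count turned on the tool. DESeq2 called 23 members higher and 1 lower, against 6.08% of all genes called higher by it and 314 of 16405 called lower. In simulated data for this comparison DESeq2 called 60 unchanged genes and edgeR 9. Of 100 simulated 2-fold changes, edgeR detected only 33 and DESeq2 61, and of 100 simulated 4-fold changes edgeR detected 84. In the data Cd68 did not pass by edgeR at 4.94-fold. The simulation changed few genes and drew the noise of each gene independently, so its rates cannot be carried over to these libraries. A member that did not pass may still differ. With the replicate number as a block, edgeR called 12 members higher, against 1.79% of all genes.

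The tested members with a log2 fold change above 2 in ICH are given side by side. The choice by the ICH value by itself favours a lower value in ICH+Laminaria, so the pairs show no effect of the treatment. The log2 fold change of ICH+Laminaria against sham was 2.30 for Cd68 (edgeR adjusted p = 0.092), 2.23 for Ctsc, 2.22 for Acp5, 2.03 for Dnase2a and 1.88 for Grn, beside 2.87, 2.56, 3.36, 2.45 and 2.02 in ICH. It was 1.76 for Ctsh, 1.76 for Ctsz, 1.72 for Ctsd and 1.66 for Gusb, beside 2.06, 2.16, 2.16 and 2.09 in ICH, and none of these members passed the test in ICH+Laminaria. For Tfeb it was 0.85 (SE 0.15, edgeR adjusted p = 0.092), beside 0.33 in ICH, with 11.4 CPM as the highest sham value and 16.5 as the lowest treated value. Mitf had -0.68 and Atp6v1b2 -0.28. Atp6v0d2 had 21, 0 and 19 counts in ICH+Laminaria 1, 2 and 3, and neither it nor Plbd1 reached the level needed for the test.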

How the data were processed

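The table deposited by the authors gives for each gene a raw count per library and an FPKM value, the latter as 0.0001 where a count is 0, which was set to 0. The submitters' processing notes list StringTie 1.3.4, HISAT2 2.0.4, FastQC 0.10.1 and cutadapt 1.9 and a rat genome, whereas identifiers and coordinates are those of mouse GRCm38. How reads were counted, with which strand setting and annotation release, is not given in the sources used. The count of a gene includes reads that overlapping or near-identical genes may share, and 14 of the 46 genes share exon bases with another gene in GENCODE M21.

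Counts were tested with edgeR 4.0.16 (TMM, quasi-likelihood test, Benjamini-Hochberg adjustment over all tested genes, adjusted p under 0.05) in R 4.3.3, 6 libraries per comparison, no covariate, after a check on simulated data. Standard errors come from the F statistic. DESeq2 1.42.0, limma 3.58.1 on log2(FPKM + 1) or log2(FPKM + 0.1), other scalings and filters, a joint fit of the 9 libraries, a block for the replicate number, counts divided by their step and leaving out each library were the alternatives. Motifs were searched and figures drawn in Python 3.11.15. The members, their roles and the gene lists were chosen with earlier results of these data known. Every member may be named, and of other lists the 3 called genes with the largest change and any called against the direction of most. Serpinb6a was named outside this rule after its value was seen, and a gene that the rule names is not reported here. Low counts vary in steps, so floors cover counting error only. Of the promoter windows, 6 of the members had none in the table used.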

Additional observations from a re-analysis of the deposited data

How the results depend on the processing

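All 26 genes called higher after ICH kept their direction in each alternative, and with all libraries in the fit 20 (replicate block) to 26 of them stayed called. Leaving out 1 library gave 0 to 31 members higher and 0 to 1 lower. The single member called lower, 1 each time, was Atp6v1b2, with DESeq2 size factors in edgeR, with filterByExpr, by DESeq2, by limma after quantile normalization, with all 9 libraries in 1 fit and with counts divided by their step. The count of related genes lower was 10 by DESeq2, 0 with the replicate block and 0 to 6 with 1 library left out, and that of related genes higher was 12 with the block and 0 to 30 with 1 library left out. For ICH+Laminaria against sham, DESeq2 called 23 members higher (6.08% of all genes) and 1 lower (314 of 16405 genes). The replicate block gave 12 members higher there (1.79% of all genes). Whether the replicate numbers pair the libraries is not known. Same-numbered ICH and sham libraries correlated at 0.12, -0.04 and 0.10 in their deviations from the group mean. ICH 1 did best with sham 1 and ICH 3 with sham 3, whereas ICH 2 did best with sham 3 (0.07). Deviations within a group sum to 0, which constrains these correlations, so they cannot decide the question. Genes near 0 in ICH against sham changed sign: Gaa to -0.00962 with filterByExpr and -0.00989 without a filter, Npc1 to 0.028 with upper-quartile scaling and to 0.035 and 0.038 by limma with either pseudocount, and Mitf to -0.020 after quantile normalization. With 1 library left out the log2 fold change ranged from -0.11 to 0.17 for Gaa, -0.041 to 0.026 for Npc1, -0.15 to 0.024 for Mcoln1, -0.16 to 0.43 for Mitf and -0.14 to 0.48 for Tpp1. The cause was not tested. The median log2 fold change of the members in ICH against sham stayed between 0.63 and 0.87. Depth limits low genes such as Atp6v0d2, without a count in sham, and Plbd1, at 0.112 to 0.355 CPM there.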
